A study of Mus musculus with 6 samples.

Results

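Mitochondria make only a few of their own proteins and import the rest, as unfolded chains, from the cytosol. The genes described here encode that import machinery. They are the protein-coding genes whose symbols begin with Timm or Tomm and a number, plus Timmdc1, Pam16, Dnajc19, Grpel1, Grpel2, Samm50, Mtx1, Mtx2, Chchd4, Gfer, Pmpca and Pmpcb, 36 of the 28987 genes in the deposited table. The rule uses symbols and known function, and no measured value, although it was written with earlier results of these data known. Tomm20 fits this rule but was not found among the coding symbols mapped to the table, so it was not analysed. Sums and medians of its complex leave it out.

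RNA was sequenced from bone marrow of C57BL/6 mice that model the myelodysplastic syndromes through mutations of CBL and RUNX1 and were given either Mdivi-1, a compound used as an inhibitor of the mitochondrial fission protein Drp1, or vehicle. Hematopoietic stem and progenitor cells (HSCPs), enriched through the receptor CD117, gave 1 vehicle and 1 Mdivi-1 library. Sorted Ly6G+ myeloid cells, mostly neutrophils and their late precursors, gave 2 vehicle and 2 Mdivi-1 libraries. Every group carried the mutations, so no unmutated cells are in the comparison. The labels give neither the ages of the mice nor the dose and duration of the treatment. Marrow came from individual mice, but the animal behind each of the 6 libraries is not named, and the p-values therefore reflect variation among libraries, which may be technical. Values are TPM, the share of a library's transcripts that a gene contributes after correction for its length, with which levels of different genes can be compared.

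Most precursors enter through the translocase of the outer membrane (TOM), whose pore is Tomm40. From there, small chaperones of the intermembrane space (the small TIM proteins) carry carrier proteins to the TIM22 translocase of the inner membrane and barrel proteins to the sorting and assembly machinery (SAM) of the outer membrane. Precursors with a cleavable presequence pass through the TIM23 channel, are pulled into the matrix by a heat shock protein motor (PAM) and are trimmed by the processing peptidase (MPP). Chchd4 and Gfer, the receptor and the oxidase of the MIA pathway, fold and trap proteins of the intermembrane space, the small TIM proteins among them. Neutrophils are known for few mitochondria and for a metabolism resting largely on glycolysis.

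The labels were first checked against marker genes. Kit, which encodes CD117, was at 72.2 and 64.9 TPM in the HSCP libraries and at 10.7 ± 2.38 TPM (SD, n = 4) in Ly6G+ cells. Ly6g was at 187 and 90.1 TPM in HSCPs and at 772 ± 88.9 TPM (SD, n = 4) in Ly6G+ cells. The HSCP libraries thus also held neutrophil transcripts. The 11 neutrophil markers summed to 86521 to 95687 TPM there and to 256037 to 266463 TPM in Ly6G+ cells, most of it S100a8 and S100a9. The 10 progenitor markers summed to 14468 to 15491 TPM in HSCPs and to 1865 to 1978 TPM in Ly6G+ cells. Mpo, Elane, Prtn3 and Ctsg made up most of the progenitor sum. No marker on these lists was at 0 in any library. Dnm1l, which encodes Drp1, was at 30.6 and 35.5 TPM in HSCPs and between 23 and 24.6 TPM in Ly6G+ cells.

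Promoter sequence was read for the members because so many of them moved together between the populations. RefSeq windows (build GRCm38.p6) matched 32 of the 36 genes; Grpel2, Timm21, Tomm40l and Tomm7 had none. In the 250 bases before the start, the letters CCGGAAG were searched on both strands. They hold the core recognised by ETS factors such as GABPA, a regulator linked to many nuclear genes for mitochondrial proteins. They stood before 13 of 30 expressed members with a window (43.3%) and before 16.7% of 8953 expressed coding genes with one. The last 100 bases before the start are shown for members with these letters, which are capitalised here as CCGGAAG or its reverse complement CTTCCGG, the pair overlapping where they read CTTCCGGAAG. The windows are Tomm22 at chr15:79670768-79670867 (plus strand), Timm8b at chr9:50603801-50603900 (plus strand), Tomm70a at chr16:57121614-57121713 (plus strand), Timmdc1 at chr16:38522664-38522763 (minus strand) and Timm10 at chr2:84826921-84827020 (plus strand).
Tomm22: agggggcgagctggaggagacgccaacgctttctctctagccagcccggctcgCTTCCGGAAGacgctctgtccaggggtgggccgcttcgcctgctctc
Timm8b: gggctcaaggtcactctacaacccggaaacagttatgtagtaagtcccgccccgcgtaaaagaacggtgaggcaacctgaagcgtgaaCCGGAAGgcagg
Tomm70a: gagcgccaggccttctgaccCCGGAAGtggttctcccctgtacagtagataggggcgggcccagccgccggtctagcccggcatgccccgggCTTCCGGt
Timmdc1: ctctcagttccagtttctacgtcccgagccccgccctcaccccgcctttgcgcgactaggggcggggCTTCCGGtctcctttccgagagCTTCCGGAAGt
Timm10: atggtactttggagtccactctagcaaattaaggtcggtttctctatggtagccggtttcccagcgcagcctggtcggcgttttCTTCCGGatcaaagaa

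Some members, chosen here for their large differences between the populations, lacked those exact letters in the whole 250 bases. They are shown in lower case throughout. Only the exact letters were searched. The shorter GGAAG or its reverse complement CTTCC stands, for example, in the 250 bases of Tomm40, Timm13, Timm8a1, Timm9 and Timm10b. All of these count as without the letters, with Timm9 at a difference of -1.84 and Timm10b at -0.20. The members shown are Tomm40 at chr7:19715430-19715529 (minus strand), Timm13 at chr10:80900970-80901069 (minus strand), Timm8a1 at chrX:134541671-134541770 (minus strand) and Timm9 at chr12:71136676-71136775 (minus strand).
Tomm40: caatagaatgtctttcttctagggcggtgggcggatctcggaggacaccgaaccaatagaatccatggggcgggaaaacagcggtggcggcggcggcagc
Timm13: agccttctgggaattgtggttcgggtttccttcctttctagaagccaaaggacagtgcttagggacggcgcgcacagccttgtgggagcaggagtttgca
Timm8a1: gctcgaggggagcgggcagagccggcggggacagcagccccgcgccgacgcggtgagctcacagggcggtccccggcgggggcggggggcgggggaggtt
Timm9: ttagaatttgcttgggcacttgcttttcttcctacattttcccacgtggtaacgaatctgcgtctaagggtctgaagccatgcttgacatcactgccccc

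Other motifs were no more frequent before the members than before expressed genes at large, or rested on few genes. The NRF1 motif was found before 2 members (6.67%, against 9.82%), Chchd4 at base -196 and Pam16 at base -15, counted back from the start. The YY1 letters AAGATGGC were before 0 of 30 (2.58% of expressed genes), the E-box CACGTG before 2 (6.67%, against 10.1%), CCAAT before 9 (30%, against 41.1%) and TATAAA before 3 (10%, against 7.63%), all on both strands. Median GC content was 57.6% for the members and 59.6% for expressed genes. These matches describe letters only.

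Of the 36 genes, 34 were expressed, each at 4 TPM or more in every library. Timm8a2, a relative of Timm8a1, reached at most 0.206 TPM, and Tomm20l, a relative of the receptor gene Tomm20, was listed at 0 in every library. The highest mean over the 6 libraries was that of Tomm6, a small TOM subunit, at 250 and 263 TPM in HSCPs and 151, 141, 143 and 147 TPM in Ly6G+ cells. Tomm22, the central receptor of TOM, followed with 142 and 163 TPM in HSCPs and 147, 131, 132 and 143 TPM in Ly6G+ cells. The next was Timm10b, a small TIM protein of the TIM22 complex, with 123 TPM in both HSCP libraries and 101, 113, 114 and 101 TPM in Ly6G+ cells. Only 22.7% of the 31-base stretches of the Tomm6 transcripts (GENCODE M21) occur in no other gene, 71.8% being shared with the overlapping gene Gm21981, which was listed at no more than 0.678 TPM. For Timm23 the unique share was 36.6%, with 57.7% shared with Gm10273, listed at no more than 0.329 TPM. Levels of both members therefore rest on how kallisto divided shared reads. In these values Tomm6 separated the populations, while the Tomm22 libraries overlapped and those of Timm10b lay close together. At the low end, Gfer, Grpel2 and Timmdc1 lay between 10.9 and 18.7 TPM in HSCPs and between 4.53 and 7.75 TPM in Ly6G+ cells. Values in Ly6G+ cells are given with the vehicle libraries first throughout.

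**Figure D1:**
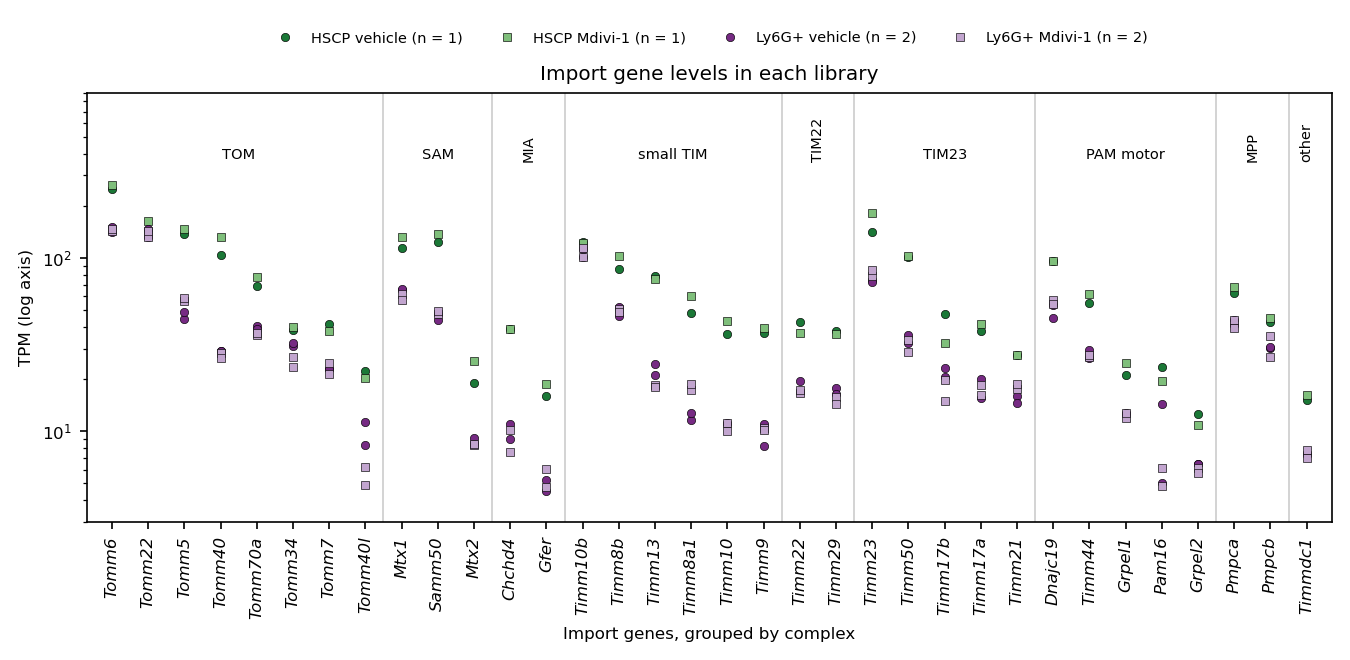
Level of each expressed import gene in each library, in TPM on a log axis, with the genes grouped by complex. Green points are HSCP libraries (1 vehicle, 1 Mdivi-1) and purple points Ly6G+ libraries (2 vehicle, 2 Mdivi-1); the green points lie above the purple ones for every gene shown but Tomm22.

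Import transcripts took a smaller share of the transcripts of Ly6G+ cells than of HSCPs. The members summed to 2293 and 2476 TPM in HSCPs (2384 ± 129, SD, n = 2) and to 1204, 1187, 1184 and 1191 TPM in Ly6G+ cells (1192 ± 8.84, SD, n = 4), a ratio of 0.50. Among the 34 genes tested, 32 were lower in Ly6G+ cells and 0 were higher, by limma with an adjusted p below 0.05; of all 12338 genes tested, 50.3% were lower and 22.2% higher by the same rule. The median difference was -1.05 on the log2(TPM + 1) scale for the members and -0.35 for all genes, so the members lay 0.70 below the rest. The fall was at least 2-fold in 18 of the 34, against 19.6% of all genes. In bulk RNA, fewer cells of a type and less RNA per cell cannot be told apart.

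The MIA pair and the small TIM chaperones stood lowest. By complex, the summed TPM of Ly6G+ cells over that of HSCPs was 0.26 for MIA, 0.43 for SAM, 0.44 for both TIM22 and TIM23, 0.50 for the small TIM proteins, 0.51 for the motor, 0.55 for TOM and 0.67 for the peptidase. The small TIM sum is held up by Timm10b and Timm8b, its most abundant members: the median log2 difference of its 6 expressed genes, -1.79, was as low as that of MIA, -1.76. The medians of the other complexes were -1.26 for SAM, -1.15 for TIM22, -1.04 for TIM23, -0.87 for TOM, -0.86 for the motor and -0.56 for the peptidase.

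In the outer membrane, Tomm40, the pore itself, had the largest fall of all members. It was at 104 and 133 TPM in HSCPs and at 28.9, 29.0, 28.2 and 26.6 TPM in Ly6G+ cells (log2 difference -2.02, SE 0.11, limma adjusted p = 1.60e-05). All 4 Ly6G+ libraries lay together, far below both HSCP libraries. Its partners fell less: Tomm5 by 1.44, Tomm70a, a receptor for carrier precursors, by 0.92, Tomm6 by 0.81 and Tomm7 by 0.77. Tomm34, a cytosolic co-chaperone, fell by 0.46 (adjusted p = 0.00704). Tomm22 did not pass the test, with a difference of -0.14 (SE 0.08, adjusted p = 0.162). The receptor and the pore of the same complex thus had different values: Tomm22 exceeded Tomm40 less than 2-fold in HSCPs but was several times its level in each Ly6G+ library. In the sorting and assembly machinery, Samm50, its barrel subunit, was at 124 and 137 TPM in HSCPs and between 43.9 and 49.4 TPM in Ly6G+ cells, a fall of 1.45. The metaxins Mtx1 and Mtx2 fell by 0.96 and 1.26.

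In the intermembrane space, Chchd4 was at 38.7 and 38.6 TPM in HSCPs and at 10.9, 9.01, 7.61 and 10.2 TPM in Ly6G+ cells (log2 difference -1.94, limma adjusted p = 4.17e-05). Its oxidase partner Gfer was at 15.9 and 18.7 TPM and at 5.23, 4.53, 6.04 and 4.79 TPM (-1.58). For neither gene did the populations overlap. Timm13, which works with Timm8 proteins, was at 78.7 and 75.8 TPM in HSCPs and at 21, 24.3, 18.5 and 18.1 TPM in Ly6G+ cells (-1.88, adjusted p = 1.39e-05). Timm9 was at 36.6 and 39.2 TPM and at 11, 8.20, 10.4 and 10.1 TPM (-1.84, adjusted p = 2.96e-05), and its partner Timm10 at 36.6 and 43.5 TPM and at 11.1, 11.1, 10.1 and 11.1 TPM (-1.79). Timm9 and Timm10, whose products form one chaperone ring, were at similar TPM to each other in both populations. Timm8a1, the mouse counterpart of the gene mutated in human deafness-dystonia syndrome, fell by 1.8. Timm8b fell by 0.92, and Timm10b did not pass (-0.20, adjusted p = 0.0587).

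In the inner membrane and matrix, all 14 expressed genes of TIM22, TIM23, the motor and the peptidase were lower in Ly6G+ cells. The largest fall was that of Timm50, the TIM23 receptor, at 102 and 103 TPM in HSCPs and at 32.1, 36.1, 33.8 and 28.7 TPM in Ly6G+ cells (-1.62). Timm23, the channel, was at 141 and 181 TPM and at 74.5, 72.9, 78.5 and 84.8 TPM (-1.04). Timm22 and Timm29, both of the carrier translocase, fell by 1.13 and 1.17. Of the motor, Timm44, its anchor, fell by 1.06, Dnajc19 by 0.86 and the nucleotide exchange factors Grpel1 and Grpel2 by 0.82 each. The subunits of the processing peptidase had small falls, Pmpca by 0.62 and Pmpcb by 0.50. Timmdc1, a complex I assembly factor related to Timm23, fell by 0.99.

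Pam16, a regulator of the motor, was the least even member. It was at 23.4 and 19.5 TPM in HSCPs and at 14.3, 5, 6.10 and 4.81 TPM in Ly6G+ cells, so that the first vehicle library stood apart from the other Ly6G+ libraries. The fall was 1.51 (SE 0.38, limma adjusted p = 0.0137). Without the first Ly6G+ vehicle library it was 1.83 (adjusted p = 0.000329), and without the HSCP Mdivi-1 library it was 1.35 with an adjusted p of 0.0913. Only 63.5% of the 31-base stretches of the Pam16 transcripts occur in no other gene; 20.8% are shared with the near-copy Gm9803, which was listed at 20.7 to 42.6 TPM. Reads of Pam16 and Gm9803 could therefore be split between them in either direction. Their sum was 54.0 and 62.1 TPM in HSCPs and 38.2, 25.9, 26.8 and 28.9 TPM in Ly6G+ cells. It still depends on the split if the transcripts differ in length. It also leaves out other genes that share stretches with Pam16. The ratio of the population means was 0.52 for the sum and 0.35 for Pam16 alone, and the first vehicle library was again the highest of the Ly6G+ libraries.

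**Figure D2:**
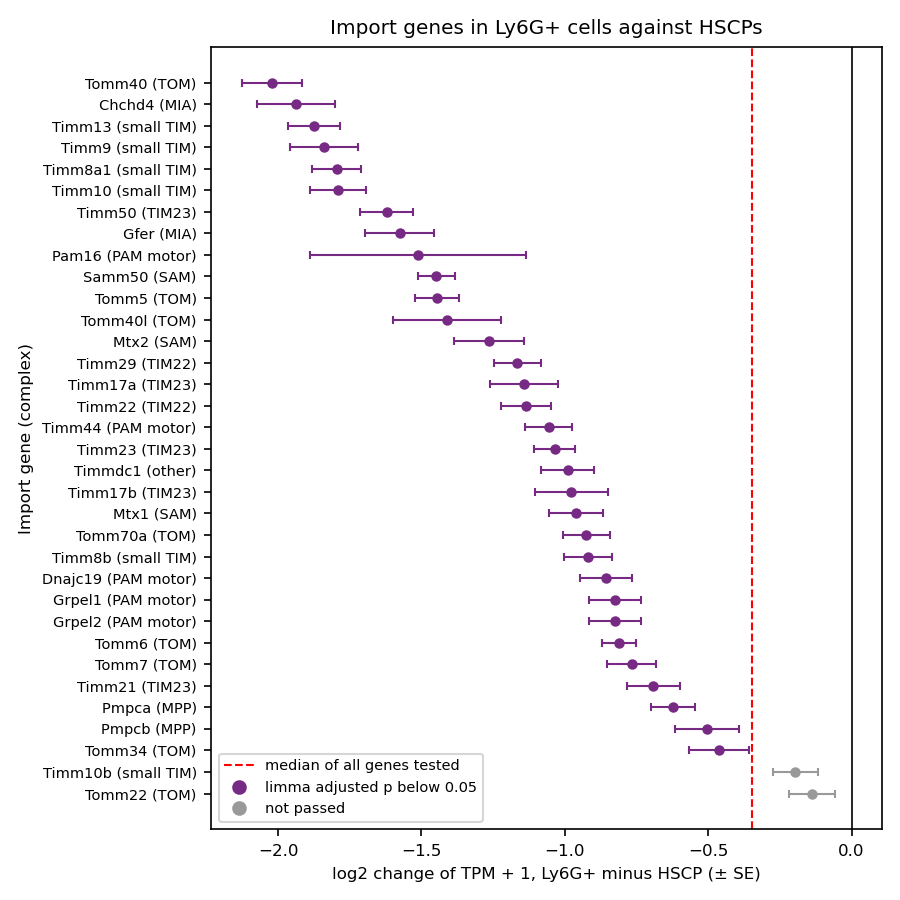
Difference between Ly6G+ cells and HSCPs for the 34 expressed import genes, as log2(TPM + 1), with bars for the standard error; the dashed line is the median of all genes tested, at -0.35. Purple genes passed limma's test and grey ones did not; Tomm40 lies lowest at -2.02, and Tomm22 and Timm10b lie to the right of the dashed line, where they turn positive under median-of-ratios and upper-quartile scaling.

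How the libraries are scaled bears on the size of these falls. S100a8 and S100a9, neutrophil calcium-binding proteins, took 7.06% to 7.70% of all TPM in HSCPs and 19.7% to 20.9% in Ly6G+ cells, and the TPM values of a library are shares of 1 total. Scaling by the median of ratios moved the median of all genes to -0.01 and that of the members to -0.67. Then 30 members were lower and 1 higher, against 34.1% of all genes lower and 4156 of 12321 higher. The member that was higher was Tomm22, at 0.24 (limma adjusted p = 0.034). Among all genes, 30.6% of the calls were higher in Ly6G+ cells with TPM as deposited and 49.8% after this scaling. Relative to the median of all genes, the members lay 0.66 lower after median-of-ratios scaling and 0.67 lower after upper-quartile scaling. Tomm34 and Pmpcb did not pass under either scaling. With TPM as deposited, the difference was below 0 for 34 of 34 members, against 65.7% of all genes; under either scaling it was below 0 for 32, against 50.8% (median of ratios) and 53.2% (upper quartile), Tomm22 and Timm10b being above 0. In TPM as deposited, every Ly6G+ library lay below both HSCP libraries for 33, against 52.5%. On the same scale all 34 genes were lower within vehicle and again within Mdivi-1 libraries, against 60.2% of all genes, with member medians of -1 and -1.14. The 8 erythroid markers summed to 3551 and 3725 TPM in HSCPs and to 1560 to 2064 TPM in Ly6G+ cells, with 7 lower. The 6 monocyte markers summed to 766 to 818 TPM in HSCPs and to 927 to 1040 TPM in Ly6G+ cells, with 4 higher and 1 lower. These erythroid and monocyte sums and the progenitor and neutrophil sums given above differed along with the members. Their part in the members' falls was not tested.

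Genes that work with the import machinery were compared in the same way. Of 32 partner genes (chaperones, inner membrane proteases and others), 30 were lower in Ly6G+ cells, 1 was higher and 1 did not pass, against 50.3% lower and 22.2% higher among all genes. Their median was -0.85, against -0.35. Under median-of-ratios scaling 24 partner genes were lower and 2 higher, against 34.1% of all genes lower and 4156 of 12321 higher. Their median was then -0.48, against -0.01 for all genes. Under upper-quartile scaling 25 were lower and 2 higher, against 36.6% of all genes lower and 3921 of 12329 higher. Hspa9, the heat shock protein at the heart of the motor, was at 171 and 202 TPM in HSCPs and at 49.5, 49.9, 66.2 and 62.8 TPM in Ly6G+ cells (-1.70, limma adjusted p = 8.12e-06). The gene that was higher was Yme1l1, a protease of the inner membrane, at 33.1 and 35.7 TPM in HSCPs and between 39.8 and 46.2 TPM in Ly6G+ cells (0.31, adjusted p = 0.00379). Pink1, whose kinase is itself an import substrate, did not pass (0.15, adjusted p = 0.25); under median-of-ratios and upper-quartile scaling it passed as higher.

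Related members were next compared within each library as a log2 ratio of TPM + 1, which scaling hardly touches. With 2 HSCP and 4 Ly6G+ libraries the exact two-sided permutation test cannot give a p below 0.133, so none of the 7 pairs could reach the threshold. The ratio of Timm10 to Timm10b was -1.73 and -1.47 in HSCPs and -3.08, -3.24, -3.39 and -3.08 in Ly6G+ cells (exact permutation p = 0.133, adjusted over 7 pairs 0.233). That of Timm8a1 to Timm8b was -0.83 and -0.74 in HSCPs and -2.07, -1.78, -1.49 and -1.33 in Ly6G+ cells (exact permutation p = 0.133). In both pairs every Ly6G+ library lay below both HSCP libraries, by 1.59 and 0.88 between the population means. The Mtx1 to Mtx2 ratio was higher in every Ly6G+ library, by 0.30, and the Pmpca to Pmpcb ratio lower, by 0.12. The populations overlapped for Tomm40 and Tomm40l (difference -0.61, exact p = 0.267) and for the alternative TIM23 subunits Timm17a and Timm17b (-0.17, exact p = 0.667). The mean ratio of Grpel1 to Grpel2 was 0.91 in both populations.

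**Figure D3:**
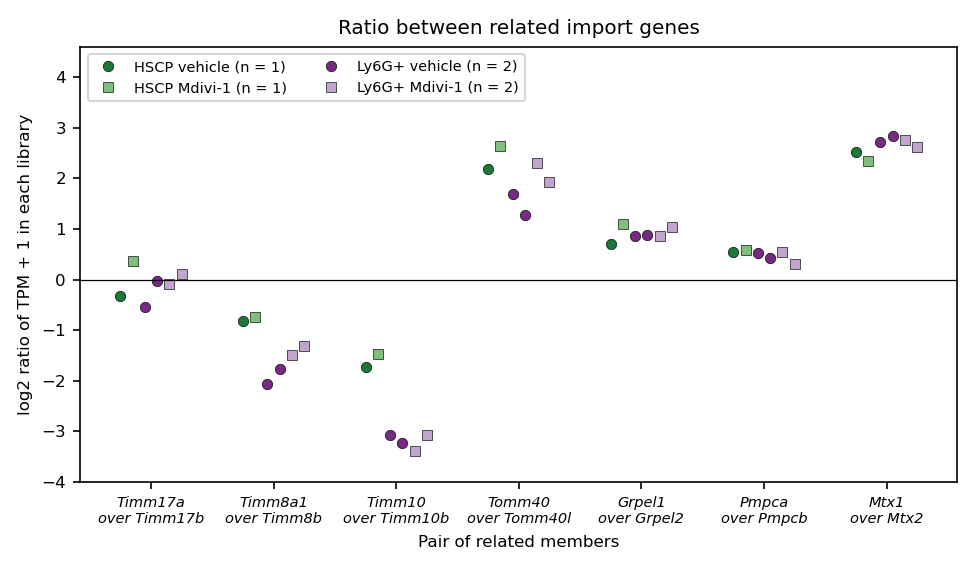
The log2 ratio of TPM + 1 between related import genes in each library, with 1 HSCP library and 2 Ly6G+ libraries per treatment. For Timm8a1 over Timm8b and Timm10 over Timm10b all 4 Ly6G+ points lie below both HSCP points, while those of Grpel1 over Grpel2 lie among them.

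The second comparison asked whether Mdivi-1 changed these genes in Ly6G+ cells. Of 34 members, 1 was higher with Mdivi-1 and 0 were lower by limma with an adjusted p below 0.05, against 2.46% higher and 4.24% lower among the 11775 genes tested. At an unadjusted p below 0.05, 3 members were higher and 3 lower, 17.6% of the 34 in all, against 8.61% higher and 17.1% lower among all genes, or 25.7% together. The difference was below 0 for 22 members, against 59.3% of all genes. The members' median was -0.03 and that of all genes -0.05. These signs depended on the scaling: 15 members were below 0 under median-of-ratios and upper-quartile scaling alike, with medians of 0.02 and 0.03, against 50.6% and 49.5% of all genes. Of the calls over all genes, 36.8% were higher as deposited, 49.1% under median-of-ratios scaling and 50.3% under upper-quartile scaling. The groups did not overlap for 5 members that were higher (14.7%, against 21% of all genes) and for 10 that were lower (29.4%, against 36.7%). The summed TPM of the members, given above, differed between the treatments by less than between the vehicle libraries.

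The gene that passed was Timm8a1. It was at 11.7 and 12.7 TPM with vehicle and at 17.3 and 18.7 TPM with Mdivi-1 (12.2 ± 0.74 and 18 ± 0.98, SD, n = 2 each; log2 difference 0.53, SE 0.09, limma adjusted p = 0.0395). Both treated libraries lay above both vehicle libraries and far below the HSCP values of 48.1 and 60.5 TPM. The call was not firm: the difference stayed between 0.47 and 0.59 when each library was left out in turn, but the adjusted p was then 0.0878 to 0.162, and it was 0.0926 with no filter on low values and 0.0696 with neither trend nor robust prior. Of its 31-base stretches 58.2% occur in no other gene, the rest being shared with the pseudogene Gm9797, which was at 1.46 TPM in the first vehicle library and below 0.001 TPM elsewhere.

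Markers of some other cell types moved with the treatment in the same libraries. The 9 early B cell markers summed to 141 and 143 TPM with vehicle and to 22.1 and 22.9 TPM with Mdivi-1, and all 9 were lower. The 8 megakaryocyte markers summed to 261 and 260 TPM and to 120 and 104 TPM, with 7 lower, and the 8 erythroid markers to 1977 and 2064 TPM and to 1560 and 1600 TPM, with 2 lower. The 5 T and NK cell markers summed to 11.7 and 11.4 TPM and to 6.59 and 5.93 TPM, with 1 of the 4 tested lower. The 6 monocyte markers summed to 957 and 927 TPM and to 987 and 1040 TPM, with 1 higher and 0 lower. The 10 progenitor markers summed to 1865 and 1967 TPM and to 1978 and 1960 TPM, with 0 higher and 2 lower. Of the 11 neutrophil markers, 4 were higher and 3 lower. Their sum, most of it S100a8 and S100a9, hardly moved. Il1b went from 136 ± 1.17 to 316 ± 7.39 TPM and Cxcr2 from 358 ± 1.46 to 609 ± 17.6 TPM (SD, n = 2 each). Camp went from 14305 ± 995 to 9082 ± 508 TPM and Ltf from 7266 ± 182 to 5127 ± 111 TPM (SD, n = 2 each). The part of these shifts in the rise of Timm8a1 was not tested.

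The other members did not pass. Tomm40l, a relative of the pore gene, was at 8.31 and 11.4 TPM with vehicle and at 4.92 and 6.25 TPM with Mdivi-1 (-0.71, limma adjusted p = 0.0934), with no overlap between the groups. Only 40.4% of its 31-base stretches are unique, since it overlaps Nr1i3 on the opposite strand, although Nr1i3 was listed at no more than 0.279 TPM. Tomm5 was at 44.4 and 48.9 TPM and at 56.3 and 58.8 TPM (0.30, adjusted p = 0.0843). Tomm34 (-0.31), Timm13 (-0.29) and Timm21 (0.24), a TIM23 subunit, had adjusted p-values of 0.104, 0.139 and 0.173. The Pam16 difference of -0.58 (adjusted p = 0.49) turned to 0.10 without the first vehicle library.

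Among the 32 partner genes in Ly6G+ cells, 2 were higher with Mdivi-1 and 0 lower, by the rule that called 2.46% of all genes higher and 4.24% lower. Hspa9 rose from 49.7 ± 0.30 to 64.5 ± 2.43 TPM (SD, n = 2 each; log2 difference 0.37, limma adjusted p = 0.0377). Hsp90aa1, a cytosolic chaperone that hands precursors to Tomm70a, rose from 204 ± 12.6 to 308 ± 33.0 TPM (0.59, adjusted p = 0.034). As for Timm8a1, the calls depended on the settings: leaving out either vehicle library raised the adjusted p to 0.159 and 0.174 for Hspa9 and to 0.158 and 0.148 for Hsp90aa1. The call for Hspa9 was also lost when either Mdivi-1 library was left out (0.114 and 0.107), and that for Hsp90aa1 was lost without the second of them (0.0883). The marker shifts given above moved with both genes, and their part in these rises was not tested.

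In HSCPs, Mdivi-1 and vehicle were compared in 1 library each, so there is no replicate check and no test. The log2 ratio was above 0 for 22 of 34 members, against 57.3% of 9482 genes, with a median of 0.09 for the members and 0.03 for all genes. Past a log2 ratio of 0.5 in size lay 0 members that were higher (1.94% of genes) and 1 that was lower (3.28%). That gene was Timm17b, at 47.6 TPM with vehicle and 32.1 TPM with Mdivi-1 (-0.56). In Ly6G+ cells it was at 23.2 and 20.6 TPM with vehicle and at 19.7 and 14.9 TPM with Mdivi-1 (-0.33, limma adjusted p = 0.238). Marker sums also differed between these HSCP libraries, from vehicle to Mdivi-1. Megakaryocyte markers were at 333 and 166 TPM and early B cell markers at 77.5 and 49.2 TPM. T and NK cell markers were at 26.5 and 11.2 TPM, most of it Nkg7 (25.4 and 9.36 TPM). The rest of that list lay near or below 1 TPM, Cd3e lower with Mdivi-1 and Cd3d, Klrb1c and Il7r higher. Neutrophil markers were at 95687 and 86521 TPM, all but Il1b lower with Mdivi-1. Among them Ly6g was at 187 and 90.1 TPM. Other sums were higher with Mdivi-1. Progenitor markers were at 14468 and 15491 TPM, monocyte markers at 766 and 818 TPM and erythroid markers at 3551 and 3725 TPM. The part of these marker differences in the Timm17b value was not tested. The alternative subunit, Timm17a, was at 37.9 and 41.8 TPM in HSCPs, so the Timm17a to Timm17b log2 ratio went from -0.32 to 0.37. The highest ratios were those of Mtx2 (0.39), Timm23 (0.36), Tomm40 (0.35) and Timm8a1 (0.32). Timm8a1 was thus the highest member in Ly6G+ cells and the 31st of 34 from the lowest in HSCPs.

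**Figure D4:**
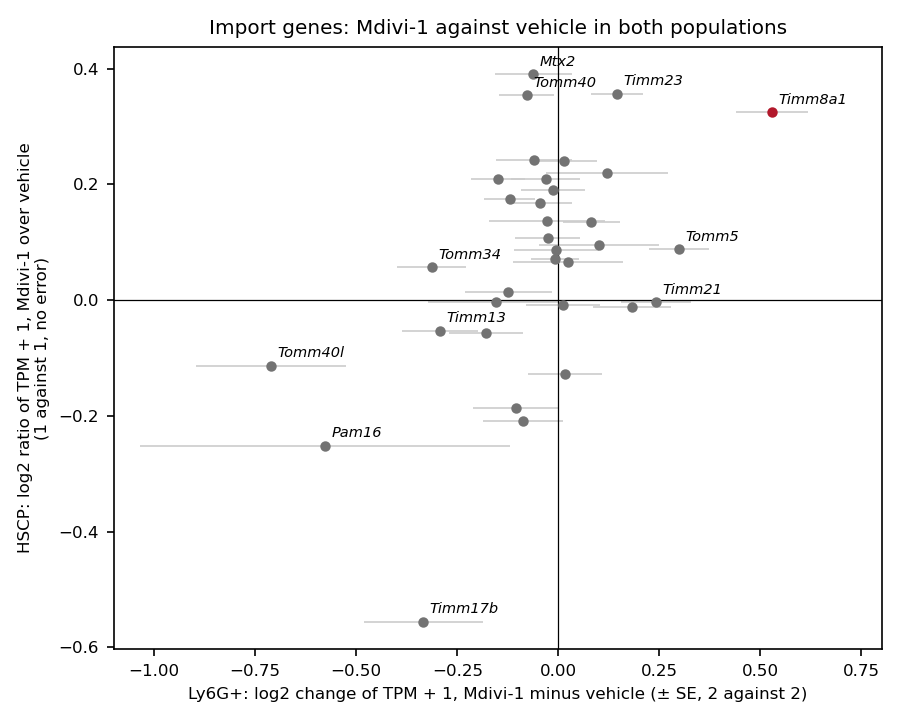
Mdivi-1 against vehicle for the 34 expressed import genes: the Ly6G+ difference with its standard error (2 libraries against 2) on the horizontal axis and the HSCP ratio (1 against 1, no error) on the vertical axis, both as log2(TPM + 1). Timm8a1, in red, is the 1 gene that passed limma's test in Ly6G+ cells, and Timm17b lies lowest in HSCPs at -0.56.

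The sign of the difference was the same in both populations for 16 of 34 members (47.1%), against 57.3% of all genes. Whether the effect of Mdivi-1 differed between the populations was tested in 1 model over all 6 libraries, in which the single HSCP libraries are assumed to vary like the Ly6G+ ones. By limma, 0 of 34 members and 0% of 12338 genes passed. At an unadjusted p below 0.05 there were 4 members (11.8%), against 11.3% of all genes, so the members' share was near the background. The 4 were Tomm40, Mtx1, Mtx2 and Tomm70a, all with a higher value in HSCPs, the direction of 6.99% of all genes against 4.34% in the other. The median of this difference was 0.14 for the members and 0.08 for all genes, and it was 0.03 and -0.02 under median-of-ratios scaling. Under that scaling 2.94% of the members had an unadjusted limma p below 0.05, against 10.7% of all genes.

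Some members share their promoter region with a neighbour. For 8 of 34 (23.5%), another coding gene started within 1000 bases on the opposite strand, head to head, against 10.95% of 11226 expressed coding genes. The neighbours did not always move with the member between the populations. Timm8b stands 98 bases from Sdhd, a subunit of respiratory complex II, at 166 and 173 TPM in HSCPs and 81.4, 80.8, 87.2 and 81.2 TPM in Ly6G+ cells (-1.02, limma adjusted p = 2.09e-05), close to the -0.92 of Timm8b. The window printed above for Timm8b covers most of the stretch between them. Pmpca, which fell by 0.62, stands 23 bases from Entr1, which rose by 0.41 (adjusted p = 0.00277). Chchd4, which fell by 1.94, stands 157 bases from Tmem43, at 72.2 and 64.4 TPM in HSCPs and 62.7, 62.2, 59.0 and 55.8 TPM in Ly6G+ cells (-0.18, adjusted p = 0.0283, a call lost with most libraries left out and turned to 0.19 by median-of-ratios scaling).

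The promoter letters described at the start were set beside the differences between the populations, as a description with no test. The 13 expressed members with CCGGAAG had a median difference of -0.92 and ranged from Timm10 (-1.79) to Tomm22 (-0.14). The 17 without it had a median of -1.45 and ranged from Tomm40 (-2.02) to Timm10b (-0.20). Among all expressed coding genes with a window the medians were -0.42 with the letters and -0.36 without. The members with the letters therefore included both small and large falls.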

How the data were processed

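The authors deposited 1 table of TPM per Ensembl gene for 6 libraries. Reads were handled with CASAVA 1.8, bcl2fastq and kallisto on build mm10, per the submitters' processing notes; kallisto's version, annotation and strand setting were not given in the sources used here. Totals were 963243.1 to 979168.3 TPM, and since TPM keeps no read number, depth is unknown. Symbols came from GENCODE M21 (27458 of 28987 IDs). Genes reaching 1 TPM in 2 or more libraries were tested with limma 3.58.1 (R 4.3.3, trend and robust prior) on log2(TPM + 1), a scale that understates the change of low genes, with Benjamini-Hochberg adjustment over all genes tested and a threshold of 0.05. Residual degrees of freedom were 2 (treatment) and 3 (populations, treatment as covariate). The members and lists were chosen with earlier results of these data known. The model for the difference between the populations' treatment effects was added after seeing the data. Ratios used exact permutation tests (scipy 1.17.1). Values in every library are given for the largest changes, related pairs and extremes of level, and up to 6 partner genes. The fits were first tested on simulated data. A log2 change of 0.5 was recovered for 23.9% (treatment) and 19.4% (populations) of changed genes. For a change of 1.0 the shares were 67.2% and 77.6%. Of the simulated calls, 3.8% (treatment) and 7.9% (populations) were false. The simulation changed few genes, in both directions and with independent noise. Between the real populations 50.3% of genes were called lower and 22.2% higher, so these shares need not hold there. Alternatives covered the pseudocount, filter, scaling, prior, covariate, replicate block and single libraries.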

Additional observations from a re-analysis of the deposited data

Results flagged for a closer look

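For 3 of the 34 expressed members, 1 of the 4 Ly6G+ libraries stood apart from the others by Dixon's criterion. It takes the gap to the nearest library over the whole range, and chance meets it in about 1 of 20 uniform groups. The 4 libraries span both treatments, and the share over all genes was not computed. Pam16 was at 14.3 TPM in the first vehicle library and at 4.81 to 6.10 TPM in the others. Mtx2 was at 9.11 TPM in the same library and at 8.32 to 8.43 TPM in the others. Timm10 was at 10.05 TPM in the first Mdivi-1 library and at about 11.1 TPM in the others. The ranges of Mtx2 and Timm10 are narrow beside their distance from the HSCP libraries.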

How the results depend on the processing

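In Ly6G+ cells, the count of members higher with Mdivi-1 fell from 1 to 0 with no filter on low values (all genes: 104 higher, 114 lower), with neither trend nor robust prior (126 and 220), with the replicate number as a block (replicate block: 152 and 173) and when each library was left out (members 0; all genes 17 to 116 higher and 5 to 163 lower). The count stayed at 1 with a pseudocount of 0.1, a filter of 5 TPM and both scalings. Whether libraries with the same replicate number were paired is not known. The correlation of their deviations was -0.04 over 8942 genes, which cannot settle it. Between the populations, members lower ranged from 29 to 33 when each library was left out; median-of-ratios scaling gave 1 member higher, Tomm22 at 0.24, with 4156 genes higher in all, and turned the neighbour gene Tmem43 to 0.19 (0.13 under upper-quartile scaling). Without the HSCP Mdivi-1 library Tomm34 and Pmpcb also did not pass, and without the first Ly6G+ Mdivi-1 library Timm10b passed. Of 7 pairs, 4 had populations that did not overlap, and 7 without the HSCP vehicle library, which leaves 1 HSCP library. No share over pairs of other genes was computed. Among all single genes, the populations did not overlap for 23.5% that were higher and 52.5% that were lower. The HSCP count was the same under all 4 alternatives run. The causes of these shifts were not tested.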
